A study of Mus musculus with 8 samples.

Results

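The 7 genes described here encode small membrane proteins, most of them known to hinder enveloped viruses. They are Ifitm1, Ifitm2, Ifitm3, Ifitm6 and Ifitm10 of the interferon-induced transmembrane family, the tether Bst2 and the lipid-anchored protein Ly6e. They were taken by gene name from a table of 39290 gene names, and all 7 were found, each on 1 row. The set was chosen by its levels in model against high dose, that is, with those FPKM values known. RNA sequencing libraries of 8 mouse samples were compared, 4 titled model and 4 titled high dose. The series title names Platycodin D, a saponin of Platycodon root, and mice with idiopathic pulmonary fibrosis, in which lung tissue scars. The sources used here do not state strain, age, dose, time or how the model was made, and untreated mice were not analysed here. Labels give both lung tissue and the mouse lung fibroblast line MLF for every library.

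The libraries held transcripts of lung epithelium and vessels in both groups. The summed level of 6 alveolar type 2 markers was 10542 to 15697 FPKM (fragments scaled by transcript length and library size) in model and 14086 to 20542 in high dose. That of 8 endothelial markers was 918 to 1190 and 992 to 1288 FPKM. In the library codes H stands with model and M with high dose, the reverse of what the initials would lead one to think. Every direction given here follows the titles and would turn if these were exchanged. The number of reads per library is unknown, since the table holds no counts. The labels do not tie the libraries to separate mice, so errors and p-values measure only how these libraries vary, and that spread may be technical.

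The better known Ifitm proteins sit in the plasma membrane and in endosomes and stiffen membranes so that a virus cannot fuse with its host cell. Ifitm3 acts in late endosomes and lysosomes and limits influenza virus in the mouse lung. Bst2, also called tetherin, holds budding virus particles at the cell surface, and Ly6e limits the fusion of coronaviruses. Interferons induce most of these genes through 2 short DNA elements, the ISRE, used mainly after type I interferon, and the GAS element, used mainly after interferon gamma.

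Promoter sequence was taken from RefSeq (GRCm38.p6, a build other than the mm39 of the deposited table) for 6 of the 7 genes, all but Ly6e. It is shown for the 5 of them with a single start site, and these differ in which interferon motifs they hold. A window ran from 250 bases before a start site to 50 bases from it, and Ifitm10 had 3 start sites. The motifs were the ISRE core, which is GAAA, then NN, then GAAA, and the GAS letters TTCNNNGAA, searched on both strands, with overlapping matches allowed. Capitals mark them below. The 250 bases before the start, 5′ to 3′ in the direction of transcription, were as follows.
Ifitm1, chr7:140967826-140968075, plus strand: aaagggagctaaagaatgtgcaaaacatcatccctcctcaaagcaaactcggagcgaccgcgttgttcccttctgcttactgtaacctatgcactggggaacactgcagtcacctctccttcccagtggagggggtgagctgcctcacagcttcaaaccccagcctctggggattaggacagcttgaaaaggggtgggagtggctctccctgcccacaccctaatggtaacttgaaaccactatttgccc
Ifitm2, chr7:140955962-140956211, minus strand: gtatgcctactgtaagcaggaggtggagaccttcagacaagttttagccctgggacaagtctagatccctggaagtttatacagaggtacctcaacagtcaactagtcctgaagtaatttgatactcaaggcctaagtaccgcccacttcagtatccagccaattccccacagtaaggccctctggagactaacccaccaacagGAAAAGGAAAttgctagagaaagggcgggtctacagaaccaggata
Ifitm3, chr7:141010745-141010994, minus strand: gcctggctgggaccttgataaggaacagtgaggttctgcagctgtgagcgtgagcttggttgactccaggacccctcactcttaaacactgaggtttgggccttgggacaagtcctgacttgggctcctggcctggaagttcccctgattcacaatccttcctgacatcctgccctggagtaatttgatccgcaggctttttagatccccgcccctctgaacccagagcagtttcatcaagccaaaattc
Ifitm6, chr7:141016893-141017142, minus strand: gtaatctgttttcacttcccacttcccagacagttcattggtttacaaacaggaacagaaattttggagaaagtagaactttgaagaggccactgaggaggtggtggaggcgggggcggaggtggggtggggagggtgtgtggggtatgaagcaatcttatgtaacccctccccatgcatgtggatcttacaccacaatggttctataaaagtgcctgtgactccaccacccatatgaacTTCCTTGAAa
Bst2, chr8:71537473-71537722, minus strand: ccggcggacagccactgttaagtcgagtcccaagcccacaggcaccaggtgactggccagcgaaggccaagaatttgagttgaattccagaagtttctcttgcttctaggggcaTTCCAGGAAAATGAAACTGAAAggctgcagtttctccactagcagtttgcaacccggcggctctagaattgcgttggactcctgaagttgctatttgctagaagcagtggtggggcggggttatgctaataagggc
In Ifitm3 the matches lay just past the annotated start, in these 30 bases from position 3 to position 32.
Ifitm3, chr7:141010713-141010742, minus strand: GAAAAGGAAAcTTCTGAGAAACCGAAActg

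An ISRE core was found in 3 of the 6 genes with a window. Ifitm2 had 1 match, at positions -46 to -37 from the start. Ifitm3 had 2, at 3 to 12 and 20 to 29, and each ran on into a longer form, the core followed by CT. Bst2 had 2 that overlapped each other, at -130 to -121 and -124 to -115, and the first of them also had the longer form. Ifitm1 and Ifitm6 had none, and neither did the 3 windows of Ifitm10. GAS letters were found in Ifitm3 (14 to 22) and Bst2 (-136 to -128), where they overlapped an ISRE core, and in Ifitm6 (-10 to -2). Of 27025 genes with a window, 3.99% held an ISRE core, 0.303% the longer form and 9.55% GAS letters. Among the other interferon-stimulated genes listed further on, 11 of 22 with a window held an ISRE core. A match is a run of letters and not a measured binding site, and no match says only that the letters are not in this window.

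**Figure D1:**
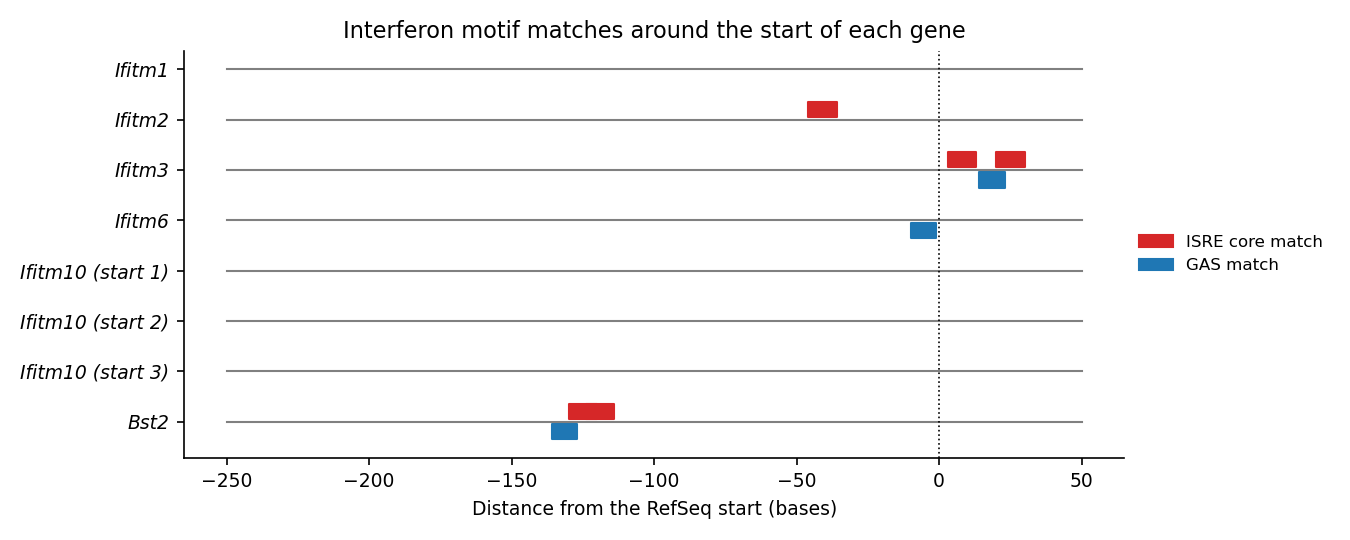
Matches of the ISRE core (red, above the line) and of GAS letters (blue, below it) in the window of each gene, by distance in bases from the RefSeq start. Ifitm2, Ifitm3 and Bst2 hold red matches, and Ifitm1 and the 3 starts of Ifitm10 hold none of either kind.

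High dose was set against model to see how these transcripts differed under treatment. All 7 genes had a lower mean in high dose, and in 5 of them (Ifitm1, Ifitm3, Ifitm6, Ifitm10 and Bst2) every high dose library lay below every model library. Among all 14418 genes tested 6.46% had groups that did not overlap with high dose lower. The contrast was used in choosing the 7 genes, so their differences are given as a description with no p-value, and nothing is read from this count. In bulk samples fewer cells of a type and less RNA per cell cannot be told apart.

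Ifitm6, a family member of rodents known from myeloid cells, differed most. It had 45.8, 28.5, 44.6 and 77.6 FPKM in model replicates 1 to 4 and 7.52, 15.4, 10.9 and 10.9 FPKM in high dose replicates 1 to 4. The groups stood well apart, with the lowest model library above the highest high dose library, and model replicate 4 was the highest of all. The means were 49.1 ± 20.6 and 11.2 ± 3.25 FPKM (SD, n = 4 each), so that high dose was at 22.8% of model. The difference was -1.99 ± 0.30 (SE). It and all later differences subtract model from high dose after taking log2(FPKM + 1). In level Ifitm6 went from percentile 90.1 of the tested genes in model to percentile 55.2 in high dose.

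Ifitm1, which acts mainly at the plasma membrane, had 128, 92.1, 117 and 217 FPKM in model and 34.7, 60.2, 55.6 and 53.8 FPKM in high dose. The groups did not overlap, and as for Ifitm6 model replicate 4 was the highest and high dose replicate 1 the lowest library. High dose was at 36.9% of model in the mean, 51.1 ± 11.3 against 139 ± 54.3 FPKM, a log2 difference of -1.38 ± 0.27.

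Ifitm3, the most abundant of the 7 genes, had 528, 485, 713 and 816 FPKM in model and 323, 366, 445 and 385 FPKM in high dose. The groups did not overlap, but the lowest model library and the highest high dose library lay close. The means were 636 ± 156 and 380.1 ± 50.7 FPKM, with high dose at 59.8% of model and a log2 difference of -0.72 ± 0.18. Even so it stayed among the most abundant transcripts, at percentile 99.7 of level in model and 99.3 in high dose.

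Ifitm2, the close relative of Ifitm3 in endosomes, had 300.4, 356, 422 and 449 FPKM in model and 217, 318, 363 and 322 FPKM in high dose. The groups overlapped, since 3 of the high dose libraries lay above model replicate 1. High dose was at 79.8% of model, 305 ± 62.0 against 382 ± 66.9 FPKM, a log2 difference of -0.33 ± 0.18. Ifitm1, Ifitm2 and Ifitm3 are close paralogs, and how reads matching several of them were counted was not given in the sources used here, so the division among them is uncertain.

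Ifitm10, a distant member of the family whose function is poorly known, was the least abundant. It had 11.4, 9.12, 10.5 and 8.60 FPKM in model and 5.28, 7.23, 7.07 and 7.04 FPKM in high dose, with means of 9.90 ± 1.27 and 6.66 ± 0.918 FPKM. The groups did not overlap and stood close, with 3 of the high dose libraries nearly level and replicate 1 below them. The log2 difference was -0.51 ± 0.12. It was the only one of the 7 genes in which model replicate 4 was not the highest model library but the lowest.

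Bst2 had 149, 138, 183 and 201 FPKM in model and 102, 95.9, 81.4 and 107 FPKM in high dose. The groups did not overlap, and the libraries within each lay closer together than for Ifitm1 and Ifitm6. High dose was at 57.6% of model, 96.6 ± 11.01 against 168 ± 29.2 FPKM, a log2 difference of -0.78 ± 0.14.

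Ly6e, at percentile 99.4 of level in model and 99.3 in high dose, had 400.0, 389.8, 499 and 506 FPKM in model and 374, 351, 377 and 403 FPKM in high dose. The groups overlapped, as high dose replicate 4 exceeded model replicates 1 and 2. Its means of 449 ± 62.1 and 376 ± 21.2 FPKM gave the smallest log2 difference of the 7 genes, -0.24 ± 0.11, with high dose at 83.8% of model.

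**Figure D2:**
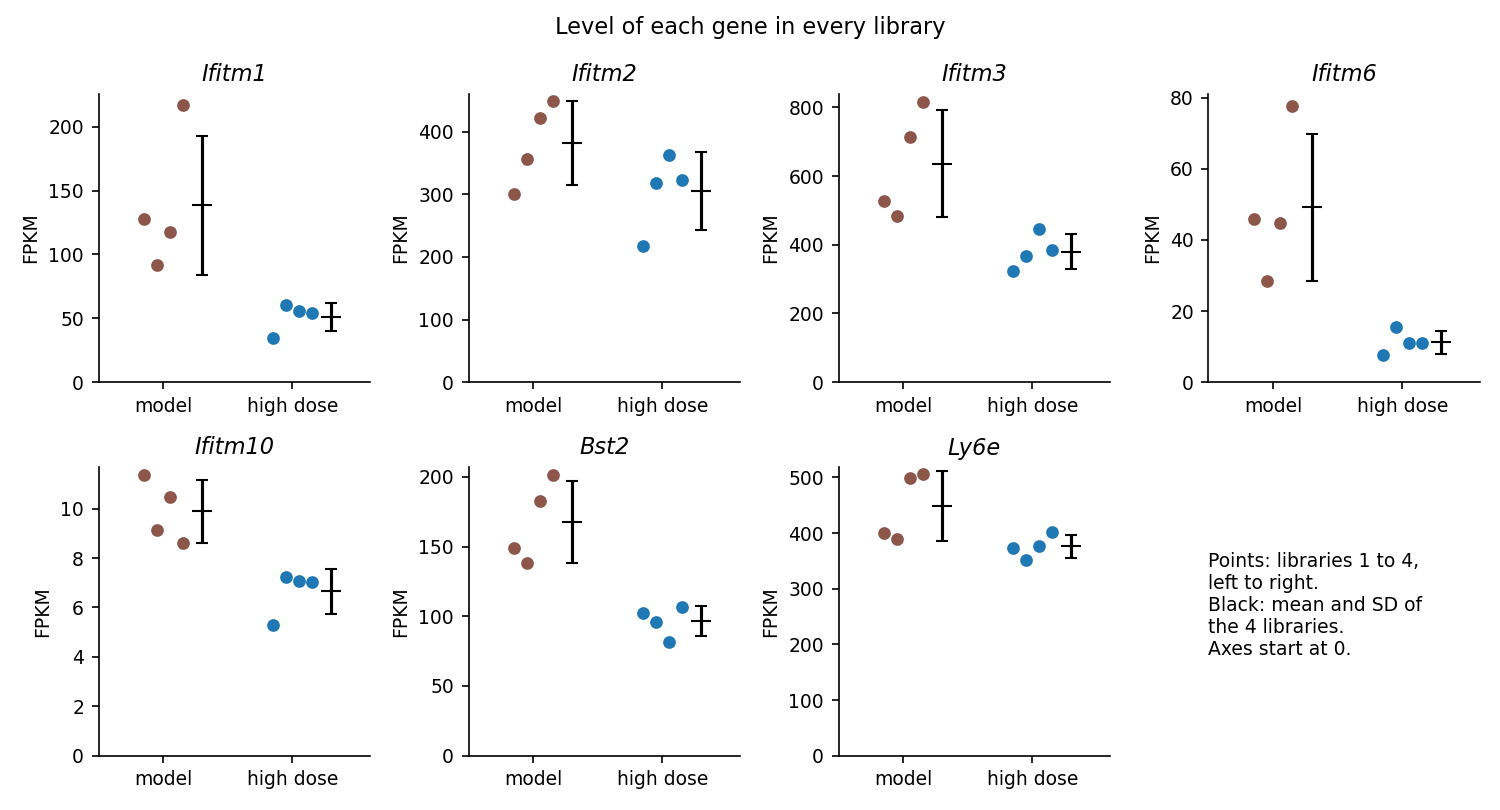
Level in FPKM of each gene in the 4 model (brown) and 4 high dose (blue) libraries, replicates 1 to 4 from left to right, with the mean and SD in black. Ifitm6 and Ifitm1 differ most between the groups as a ratio of means, and the points of Ifitm2 and Ly6e overlap.

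Model replicate 4 was the highest model library for Ifitm1, Ifitm2, Ifitm3, Ifitm6, Bst2 and Ly6e, and model replicate 2 the lowest for each of these but Ifitm2. Leaving out model replicate 4 brought the log2 difference of Ifitm6 to -1.75, of Ifitm1 to -1.14, of Ifitm3 to -0.59, of Bst2 to -0.69 and of Ly6e to -0.18. Leaving out model replicate 2 took them to -2.22, -1.55, -0.84, -0.87 and -0.31. Ifitm2 depended most on high dose replicate 1, without which its log2 difference was -0.18. The median log2 difference of all tested genes was 0.04, and 42.8% of them were below 0.

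**Figure D3:**
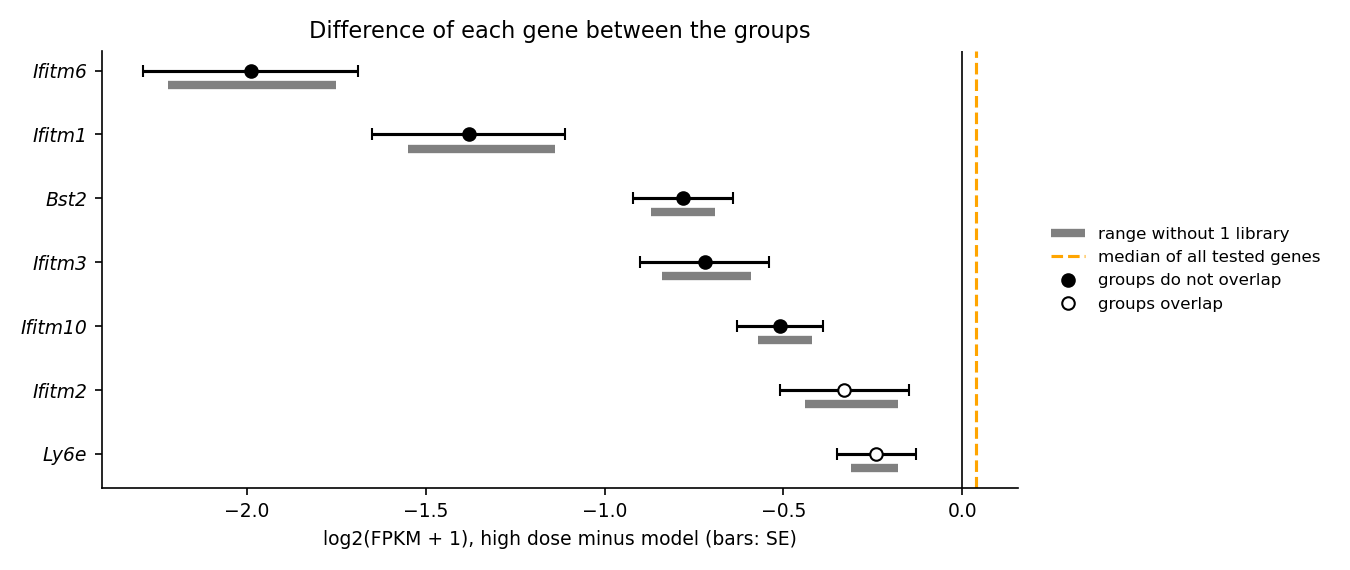
Log2 difference of each gene, model subtracted from high dose after log2(FPKM + 1), with its SE (black) and its range over the fits without 1 library (grey). Filled points, groups that do not overlap, run from -1.99 for Ifitm6 to -0.51 for Ifitm10, and all 7 grey bars lie below 0.

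The spread within groups also set the genes apart. In model the coefficient of variation over the 4 libraries was 41.9% for Ifitm6 and 39.2% for Ifitm1, and 12.8% for Ifitm10 and 13.9% for Ly6e. In high dose it was 29.0% for Ifitm6, 22.03% for Ifitm1 and 5.64% for Ly6e. The 2 genes with the largest differences between groups, Ifitm6 and Ifitm1, thus also varied most within each.

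FPKM is scaled by length, so the levels of different genes can be set side by side. The order of mean levels was the same in both groups: Ifitm3, Ly6e, Ifitm2, Bst2, Ifitm1, Ifitm6 and Ifitm10. In model each library kept this order but 1, in which Ifitm1 exceeded Bst2. In high dose Ifitm3 and Ly6e could not be separated, since each was the higher in 2 of the 4 libraries, and the other neighbours kept their order in 4 of 4.

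The 5 Ifitm genes together summed to 971 to 1568 FPKM in the model libraries and 588 to 882 in the high dose libraries. Their makeup also differed. Ifitm6 took 3.96% ± 0.939 of the sum in model and 1.48% ± 0.361 in high dose (SD, n = 4 each), and Ifitm1 took 11.2% ± 2.37 and 6.74% ± 0.847. Ifitm2 took 31.8% ± 3.58 and 40.2% ± 2.20. The libraries did not overlap for these 3 shares, but for Ifitm2 the highest model library, at 36.7%, and the lowest high dose library, at 36.9%, nearly met. Ifitm3 took 52.2% ± 1.86 and 50.7% ± 3.10, and the groups overlapped. Ifitm10 held 0.853% ± 0.242 and 0.887% ± 0.0601.

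**Figure D4:**
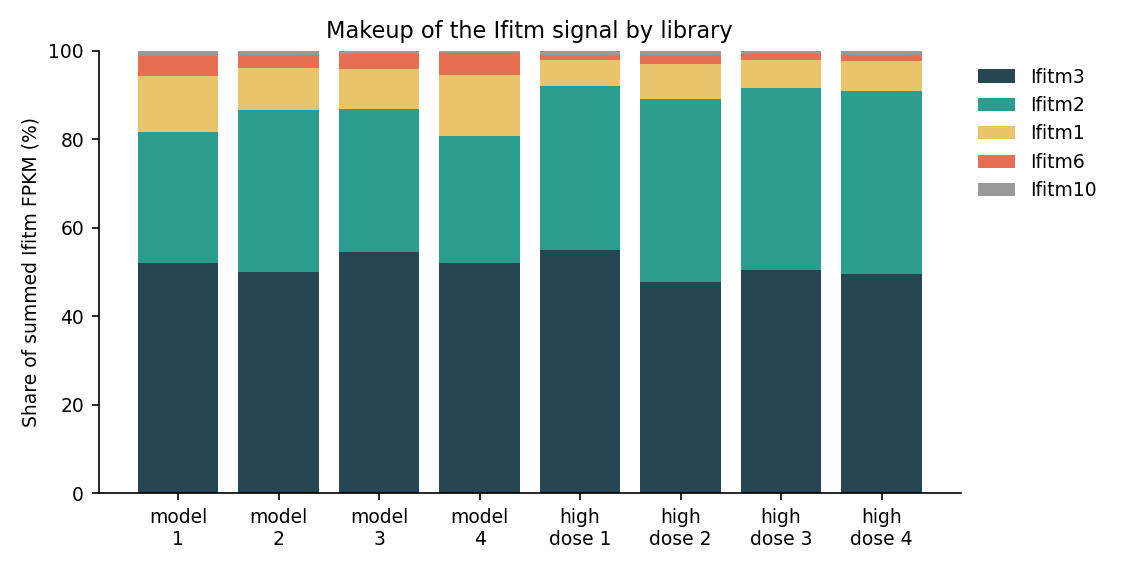
Share of each Ifitm gene in the summed FPKM of the 5 genes, in percent, for each library. The Ifitm6 band is 2.93% to 4.95% in model and 1.24% to 2.01% in high dose, while the Ifitm3 band, at the bottom, ends near the middle of the scale in every library.

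Ifitm2, Ifitm1, Ifitm3 and Ifitm6 lie next to each other on chromosome 7 in that order, Ifitm10 lies elsewhere on chromosome 7, Bst2 on chromosome 8 and Ly6e on chromosome 15, in RefSeq annotation. Of the 6 protein-coding genes around the 4 clustered Ifitm genes, 4 passed the filter of a mean of at least 1 FPKM and 0 passed the test. The test was limma's, with Benjamini-Hochberg adjustment over all genes and a limit of 0.05. Ifitm5, known from bone, was at 3.29 ± 0.446 FPKM in model and at 2.59 ± 0.821 in high dose (-0.28 ± 0.18, limma adjusted p = 0.366). Pgghg, Pkp3 and Sigirr, a receptor that dampens interleukin 1 signalling, had log2 differences of -0.09, 0.08 and 0.01. The neighbours of Bst2 that passed the filter, Mvb12a, Gm46041, Tmem221 and Plvap, had -0.07 to 0.10 and did not pass the test. Of the neighbours of Ifitm10 only Ctsd, a lysosomal protease, and Tnni2, a troponin subunit, passed the filter. Ctsd had 0.71 ± 0.40 (limma adjusted p = 0.313) and Tnni2 -1.37 ± 1.26 (limma adjusted p = 0.552, with 161 FPKM in model replicate 4 and at most 2.40 in the others).

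The neighbours of Ly6e on 1 side, Ly6i, Ly6a and Ly6c1, are other Ly6 genes, and these fell. Ly6a, which encodes the stem cell antigen Sca-1, went down to 379.9 ± 71.0 FPKM from 857 ± 272 (-1.13 ± 0.23, limma adjusted p = 0.0198). Ly6i, the next gene to Ly6e, fell from 25.1 ± 15.3 to 3.49 ± 0.505 FPKM (-2.37 ± 0.36, limma adjusted p = 0.00826). Ly6c1 fell by 1.29 ± 0.31 (limma adjusted p = 0.0325), and Ly6c2, a marker of inflammatory monocytes, by 1.90 ± 0.31 (limma adjusted p = 0.0094). Ly6g, a marker of neutrophils, fell by 1.77 ± 0.34 (limma adjusted p = 0.016). Of 19 tested Ly6 and uPAR family genes other than Ly6e, 5 fell (4.27% of all genes), 1 rose (5.86% of all genes) and 13 did not pass, with a median of -0.33. The gene that rose was Ly6k, from 0.694 ± 0.178 to 1.87 ± 0.751 FPKM (0.73 ± 0.18, limma adjusted p = 0.0372). Without model replicate 3 the falls numbered 2, and without high dose replicate 1 or 2 they numbered 3. Then Ly6a was lost without each of these 3 libraries (limma adjusted p up to 0.0596), Ly6g without model replicate 3 (limma adjusted p = 0.0509), and Ly6c1 and Ly6k in 6 of 8 fits without 1 library each (all but model replicates 1 and 2 for Ly6c1, and all but model replicate 2 and high dose replicate 4 for Ly6k). Ly6c1, Ly6c2, Ly6a and Ly6i are close paralogs, so the division of reads among them is uncertain.

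Other genes of the interferon response were lower in the same libraries. Of 29 tested interferon-stimulated genes outside the 7, 18 fell, 0 rose and 11 did not pass, with a median log2 difference of -0.89. Over all tested genes 4.27% fell and 5.86% rose by the same test. Rtp4, a membrane protein chaperone, fell from 62.6 ± 13.5 to 23.6 ± 5.43 FPKM (-1.37 ± 0.19, limma adjusted p = 0.00477), and Cmpk2 and Zbp1 fell too. Of 19 genes known for induction by interferon gamma, 15 fell, 0 rose and 4 did not pass, with a median of -1.98. Tap1, a peptide transporter of antigen presentation, fell from 122 ± 27.8 to 29.7 ± 3.92 FPKM (-1.98 ± 0.18, limma adjusted p = 0.00228), and the guanylate-binding protein Gbp3 from 126 ± 43.4 to 16.1 ± 2.58 FPKM (-2.82 ± 0.26, limma adjusted p = 0.00262). Gbp4 and Igtp fell as well. Calls of the first list numbered 12 to 25 without 1 library, and those of the second 14 to 19. Both lists were chosen with earlier results of these data known.

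Of the 5 interferon genes looked at, Ifng was measurable in every model library and the others were at or near 0. Ifnb1, Ifnl2 and Ifnl3 were listed at 0 in every library, and Ifna4 in all but high dose replicate 3. Ifng had 1.95, 0.61, 2.22 and 1.95 FPKM in model and 0.32, 0.13, 0 and 0.30 FPKM in high dose, with no overlap of the groups. It was below the filter, and in a fit with no filter its difference was -1.13 (limma adjusted p = 0.0353). The receptor and kinase genes Ifnar1, Ifnar2, Ifngr1, Ifngr2, Ifnlr1, Il10rb, Jak1, Jak2 and Tyk2 had log2 differences of -0.38 to 0.26. By limma 0 of these 9 passed the test, and without model replicate 2 Ifngr1 alone did (-0.48, limma adjusted p = 0.0252).

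Of 16 tested genes for other membrane factors and factors of viral entry, 13 did not pass, 2 fell (4.27% of all genes) and 1 rose (5.86% of all genes), with a median of 0.15. All 3 calls were lost in most fits without 1 library. Gbp2b fell from 2.89 ± 1.72 to 0.231 ± 0.069 FPKM (-1.53 ± 0.32, limma adjusted p = 0.0221). Serinc3 and Serinc5 encode membrane proteins that lower the infectivity of retrovirus particles. Serinc3 fell from 374 ± 63.9 to 265 ± 17.8 FPKM (-0.49 ± 0.13, limma adjusted p = 0.0433), and Serinc5 rose from 16.9 ± 2.47 to 23.6 ± 2.84 FPKM (0.47 ± 0.12, limma adjusted p = 0.0454). Serinc3 and Serinc5 were lost in 7 of 8 fits without 1 library (all but model replicate 2, limma adjusted p up to 0.104), and Gbp2b in 6 (all but model replicates 2 and 4, up to 0.0598).

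Enzymes and partners of Ifitm3, known largely from work in human cells, lay around 0. Zdhhc20 adds palmitate to it, the ligase Nedd4 marks it for breakdown, and Vapa is a lipid transfer partner. Zdhhc20 had a log2 difference of 0.14, Nedd4 of 0.24 and Vapa of -0.01. The others, Setd7, Kdm1a, Atp6v0b, Fyn, Zmpste24, Vcp, Abhd16a and Ap2m1, lay between -0.40 (Fyn) and 0.35 (Vcp). By limma 0 of these 11 passed, and without model replicate 2 Fyn alone did (-0.48, limma adjusted p = 0.0177). Of other genes of the Ifitm superfamily Ifitm5, Prrt1, Prrt2 and Trarg1 passed the filter, with log2 differences of -0.40 to 0.39, and by limma 0 of 4 passed. Without model replicate 1 Trarg1 alone did (-0.50, limma adjusted p = 0.0477). Ifitm7 was at 0.05 FPKM in model replicate 1 and listed at 0 elsewhere.

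**Figure D5:**
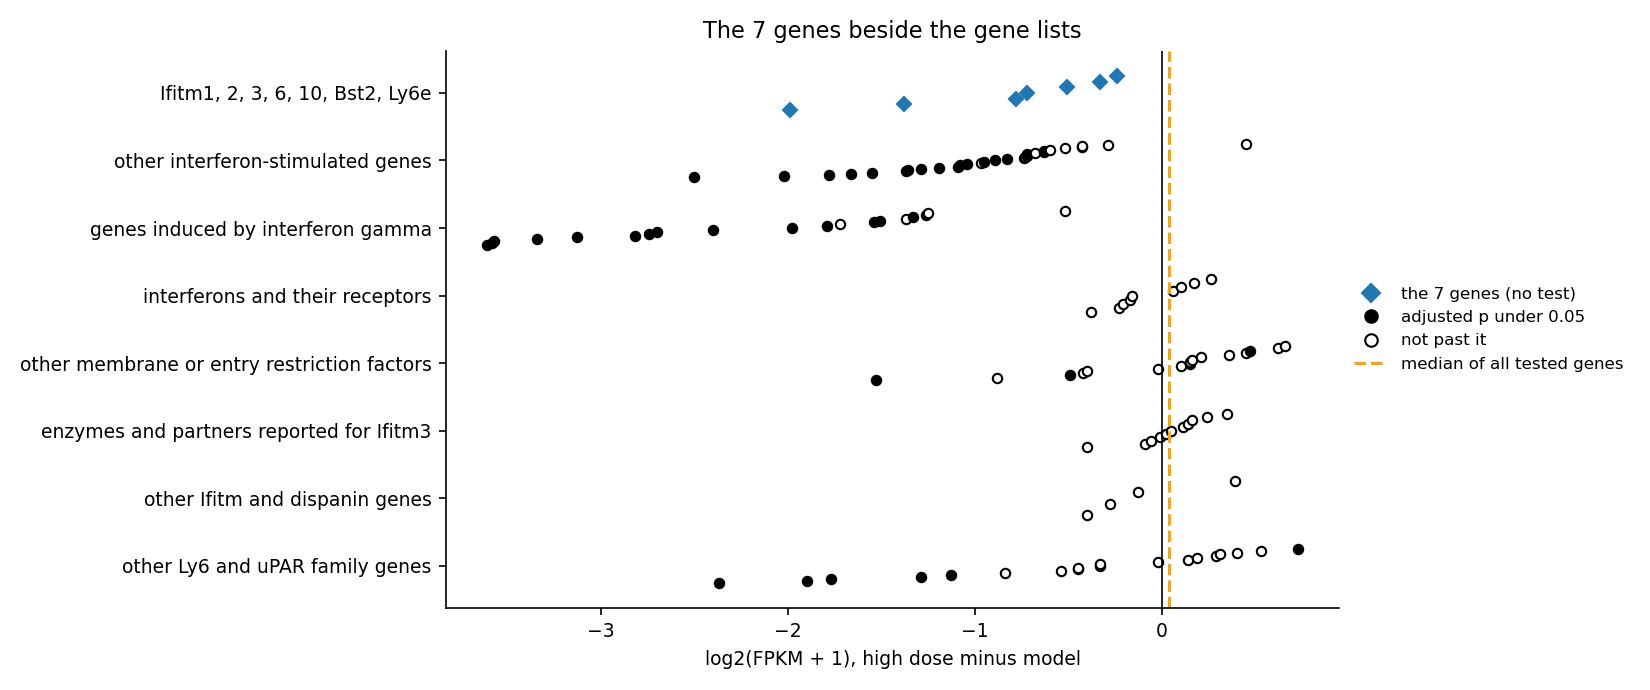
Log2 difference, high dose minus model, of the 7 genes (diamonds, not tested) and of the tested members of each gene list (filled circles where limma's adjusted p was under 0.05), with the median of all tested genes as a dashed line. Both interferon lists lie to the left of 0 apart from 1 gene, and the receptors and Ifitm3 partners lie around it.

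Markers of cell types known to carry these proteins moved with them in part. By limma 4.27% of all tested genes were lower and 5.86% higher. Neutrophil markers, 10 of 10 lower by limma, had a median of -2.49 and summed to 1096 to 2855 FPKM in model and 116 to 426 in high dose. Without 1 library 8 to 10 of them were lower. Of 6 inflammatory monocyte markers 5 were lower, with a median of -1.43, and the sum was 275 to 1023 FPKM in model and 144 to 153 in high dose. The count was 3 without any 1 of model replicates 1, 3 and 4 and high dose replicates 1 and 4, and F13a1 and Vcan were the calls lost. Of 7 natural killer cell markers 6 were lower, with a median of -1.86 and sums of 119 to 630 and 29.4 to 47.1 FPKM. Without 1 library 5 to 7 of these were lower. The sums of the neutrophil and inflammatory monocyte markers were highest in model replicate 4. So were the levels of Ifitm1, Ifitm2, Ifitm3, Ifitm6, Bst2 and Ly6e and the sums of both interferon lists and of the Ly6 list. The alveolar macrophage sum was highest there too, with 663 of its 1117 FPKM from Fabp4. The natural killer sum was highest in model replicate 3, and that of patrolling monocyte markers in high dose replicate 2. None of these markers was at 0 in every library. The part of these cells in the levels of the 7 genes was not tested.

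Few markers of other cells were lower by the test, which called 4.27% of all tested genes lower and 5.86% higher. By limma 0 of 8 endothelial, 0 of 7 T cell, 0 of 6 alveolar macrophage and 0 of 7 fibroblast markers passed, and 1 of 6 patrolling monocyte markers was lower. Their median log2 differences were 0.08, -0.05, -0.21, 0.51 and -0.31, in that order. In 3 of the patrolling monocyte markers the groups did not overlap, with high dose lower (6.46% of all genes). Leaving out 1 library gave 1 higher endothelial marker (without model replicate 2), 2 lower T cell markers (model replicate 2), 1 higher alveolar macrophage marker (high dose replicate 2) and 3 higher fibroblast markers (model replicate 4). Plasmacytoid dendritic cells, which carry Bst2 on their surface in mice, have the defining marker Siglech, at 1.41 ± 1.55 FPKM in model and 1.28 ± 0.622 in high dose. Of 6 markers of these cells 3 passed the filter and by limma 0 of 3 passed the test, with a median of -0.02 and sums of 27.0 to 54.3 and 25.003 to 49.3 FPKM. Most of these sums came from Cox6a2 (means of 23.9 in model and 19.7 in high dose) and Tcf4 (12.9 and 13.4). Siglech, Ccr9, Klk1 and Pacsin1 were low, so the sums say little about them. Of 6 alveolar type 1 markers 2 were higher and 0 lower, and 2 to 3 were higher without 1 library. Of 6 alveolar type 2 markers 2, Abca3 and Lamp3, were higher and 0 lower. This count was 4 without model replicate 2 and 1 without any other library but high dose replicate 1, and Lamp3 was lost in 7 of 8 such fits. Of 7 B and plasma cell markers 2, Jchain and Mzb1, were higher and 0 lower. The count was 0 without any 1 of model replicates 3 and 4 and high dose replicates 1 and 2, and 1 without model replicate 1 or high dose replicate 4.

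The genes whose profile over the 8 libraries was most like that of each of the 7 were named by the smallest root mean square difference of log2(FPKM + 1) values, each centred on its own mean, among 9717 genes. These are descriptions with no test. Each profile spans both groups, so the difference used in choosing the 7 genes weighs in the likeness. Genes with a similar difference therefore come out near, and likeness within a group is not shown apart from it. Bst2, for instance, had a log2 difference of -0.78, and its 3 nearest genes, named next, had -0.67, -0.71 and -0.79. Closest to Bst2 were H2-D1 (0.07), Tapbp (0.07) and H2-K1 (0.09), which encode class I antigen-presenting chains and tapasin, a chaperone of their loading. The Bst2 profile itself had a root mean square of 0.43. H2-K1 was at 1502 ± 199 FPKM in model and at 863 ± 77.3 in high dose, and Tapbp at 179 ± 26.9 and 108 ± 5.64. Closest to Ifitm6 were Trem3 (0.16), Il1f9 (0.19) and Csf3r (0.20), the last of which encodes the receptor of granulocyte colony-stimulating factor and stands among the neutrophil markers. The Ifitm6 profile had a root mean square of 1.08. Csf3r was at 90.0 ± 29.1 FPKM in model and at 19.8 ± 5.98 in high dose.

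Closest to Ifitm1 were the cytokine gene Tnfsf14 (0.10), Mxd1 (0.20), which encodes a partner of MAX, and H2-Q10 (0.24), against a root mean square of 0.79 for Ifitm1 itself. Closest to Ifitm3 were the glycogen phosphorylase gene Pygl (0.12), the peroxiredoxin gene Prdx5 (0.13) and Fbxo31 (0.13), against 0.43. The nearest profiles of Ifitm2, Ifitm10 and Ly6e were Tent5b (0.13), Tmem71 (0.09) and Tmem192 (0.06), and since these 3 genes vary little, with root mean squares of 0.30, 0.30 and 0.18, many genes lie near them. Among the 7 genes themselves Ifitm3 lay nearest to Bst2 (0.22) and Ly6e to Ifitm2 (0.22), while Ifitm6 lay 0.33 from Ifitm1 and 0.70 to 0.95 from the others.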

How the data were processed

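The authors deposited 1 table of FPKM values with 1 column per library and 48632 rows. The header names no unit, and FPKM was inferred since values were not whole and columns summed to between 845852 and 1249864. Rows without a gene name held 50.0% to 65.2% of a column's sum, and the largest single row 6.17% to 41.5%. FPKM is relative to the library total, so such rows can shift the other levels. Rescaling the named rows to a common sum was among the alternatives. Per the submitters' processing notes, mm39 was the genome build. Aligner, counter and annotation are not given in the sources used here. Depth is unknown, so precision is judged by how 4 libraries vary.

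Rows with 1 gene name were summed (41617 rows had a name), and the 14418 genes with a mean of at least 1 FPKM were fitted together as log2(FPKM + 1) with limma 3.58.1 in R 4.3.3. Group was the only term, with trended and robust variances. P-values are two-sided, with Benjamini-Hochberg adjustment over all 14418 and a limit of 0.05. The log2 scale with a pseudocount of 1 understates changes of low genes. The 7 genes and all lists were chosen with earlier results of these data known. Named genes were the 7, the 3 nearest profiles of each (mean of at least 5 FPKM), up to 4 called genes per list, all of a list under 12, and 3 neighbours per side. Further genes of lists were named after their values were seen. Of the listed genes Rigi, Mx1, Mx2 and Tusc5 were not used here, and 1 gene named by the rule is not reported here. Alternatives covered pseudocounts, filters, scalings, variance settings, unsummed rows, a block by replicate number, and leaving out 1 library at a time. Python 3.11.15 with matplotlib 3.10.9 made the figures.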

Additional observations from a re-analysis of the deposited data

Results flagged for a closer look

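Of 14 groups of 4 libraries (7 genes, each in model and in high dose), 1 had a library far from the others by Dixon's ratio. For Ifitm10 in high dose, replicate 1 had 5.28 FPKM against 7.04 to 7.23 in the other libraries, and the gap took a share of 0.903 of the group's range, above Dixon's 95% critical value for 4 libraries. Chance gives such a value in about 5% of groups. Without this library the log2 difference of Ifitm10 was -0.42, against -0.51 with it.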

How the results depend on the processing

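All 126 recomputed values of the 7 genes (18 settings each) kept high dose below model, and 0 moved by as much as the SD between replicates. Much of this was fixed in advance, so it says little about robustness. Filters, variance settings, unsummed rows and the block leave the log2 difference of these genes nearly or wholly as it was. Leaving out 1 of 4 libraries cannot shift it by that SD, nor turn its sign where the groups do not overlap. Settings other than a left-out library gave -2.09 to -1.99 for Ifitm6, -1.40 to -1.38 for Ifitm1, -0.81 to -0.78 for Bst2, -0.74 to -0.70 for Ifitm3, -0.57 to -0.51 for Ifitm10, -0.36 to -0.33 for Ifitm2 and -0.27 to -0.20 for Ly6e. Over all genes 845 were higher, against 518 without the filter on low values and 486 with the replicate number as a block. Replicate numbers were not treated as pairs, since the labels do not say that a shared number marks a shared animal, batch or day. Same-numbered libraries had correlations of 0.15, 0.28, -0.07 and -0.09, and not every library correlated best with its own number. Without 1 library 364 to 1176 were higher and 336 to 969 lower (616 with all). Then 2903 to 4033 did not overlap (2559 with all), a count that leaving out a library cannot lower. Entry factors numbered 1 higher, and 0 without the filter, with median centring, rescaled to a common sum, or without trend and robust settings. They numbered 2 lower, and 1 without the filter or with a minimum mean of 5 FPKM. Without 1 library they numbered 0 to 1 higher and 0 to 3 lower. Lower calls went from 0 to 1 without the filter for interferons and receptors and with median centring for Ifitm3 partners, and without 1 library they were 0 to 1 in these lists and among Ifitm relatives. Ly6 genes were 1 higher, and 0 with a minimum mean of 5 FPKM. Without 1 library they were 0 to 3 higher and 2 to 6 lower. The cause of these changes in the calls was not tested. No read counts were at hand, so how depth limits the low genes is unknown.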
